A study of Mus musculus with 6 samples.

Results

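The collagen genes were examined in chromatin accessibility data from mouse quadriceps femoris, a thigh muscle. Their regions were chosen by name alone: every accessible region (peak) that the deposited table annotates to a gene symbol of the form Col, a number, a, a number. That rule found 293 of 75134 peaks, annotated to 42 of 16019 genes, and 292 of the 293 had enough counts to be tested. Of the 293, 65 belonged to 8 fibrillar genes (Col1, Col3, Col5 and Col11), 66 to 7 basement membrane genes (Col4, Col15 and Col18), 33 to 6 Col6 genes and 129 to 21 other collagen genes. The fibrillar class holds these types only, and other fibril-forming collagens such as Col27a1 are counted with the other genes. The assay was ATAC-seq, in which a transposase cuts and tags open DNA, here in nuclei of snap-frozen muscle. There were 3 libraries labelled Prr14-KO (replicates 4, 5 and 7) and 3 labelled Prr14-WT (replicates 3, 4 and 8). No source used here gives their age, sex or strain background, or the deleted part of Prr14. PRR14 is a protein of the nuclear lamina that tethers heterochromatin to the nuclear edge, and the comparison asks how accessibility in muscle differs without it. The labels do not say that each library came from its own animal. The p-values set the difference between the groups against the spread among these libraries only, and that spread may be technical.

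Collagens are triple-helical proteins of the extracellular matrix. The fibrillar types form the load-bearing fibrils of endomysium, perimysium and tendon, type IV forms the network of the basement membrane around each myofibre and capillary, and type VI forms beaded filaments that join that membrane to the fibrils. In muscle, most collagen mRNA comes from fibroblast-like interstitial cells (fibro-adipogenic progenitors), with type IV made largely by endothelial and mural cells, while a few minor collagens are made by the myofibre nuclei under the nerve terminal or at the tendon end. The tissue here was a mixture of all these nuclei, so fewer nuclei of one type and lower accessibility per nucleus cannot be told apart.

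The promoter sequences of 6 collagen genes are shown to give the regions a concrete form. They were read from a RefSeq table of GRCm38.p6 and run from 250 bases before to 50 bases after the annotated start, 5′ to 3′ on the gene's strand, 300 bases each. Capitals mark matches to 5 motifs on either strand: TATAAA, the TATA box; CCAAT, the CCAAT box (ATTGG on the other strand); GGGCGG, the GC box bound by Sp1-like factors (CCGCCC on the other strand); CANNTG, the E-box bound by basic helix-loop-helix factors; and TGANTCA, the AP-1 site. Col1a2 stands for the classical fibrillar pair, and Col4a1 and Col4a2 are the divergent pair that make the major basement membrane heterotrimer. Col19a1, Col6a3 and Col16a1 were added after their values were seen, because they were the collagen genes whose summed accessibility passed the test described further on. The windows lie at chr6:4505368-4505667 (+ strand), chr8:11312777-11313076 (- strand), chr8:11312555-11312854 (+ strand), chr1:24587388-24587687 (- strand), chr1:90843922-90844221 (- strand) and chr4:130047590-130047889 (+ strand), in the order printed.
Col1a2: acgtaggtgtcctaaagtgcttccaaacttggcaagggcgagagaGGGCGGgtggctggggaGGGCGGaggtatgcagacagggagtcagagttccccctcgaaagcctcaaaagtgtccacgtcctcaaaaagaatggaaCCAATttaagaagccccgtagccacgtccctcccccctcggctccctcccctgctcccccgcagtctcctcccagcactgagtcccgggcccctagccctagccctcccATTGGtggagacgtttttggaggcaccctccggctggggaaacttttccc
Col4a1: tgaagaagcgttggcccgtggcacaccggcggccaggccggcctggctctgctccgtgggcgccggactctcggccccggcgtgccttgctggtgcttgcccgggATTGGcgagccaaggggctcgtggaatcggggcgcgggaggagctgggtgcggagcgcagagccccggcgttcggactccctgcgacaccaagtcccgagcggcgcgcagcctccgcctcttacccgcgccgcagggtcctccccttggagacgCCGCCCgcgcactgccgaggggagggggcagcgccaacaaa
Col4a2: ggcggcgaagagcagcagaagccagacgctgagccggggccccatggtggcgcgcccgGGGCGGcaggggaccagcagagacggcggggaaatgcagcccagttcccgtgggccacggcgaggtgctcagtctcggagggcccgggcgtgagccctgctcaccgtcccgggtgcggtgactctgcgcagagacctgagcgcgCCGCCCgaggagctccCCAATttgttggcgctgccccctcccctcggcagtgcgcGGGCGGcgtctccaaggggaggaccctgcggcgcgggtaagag
Col19a1: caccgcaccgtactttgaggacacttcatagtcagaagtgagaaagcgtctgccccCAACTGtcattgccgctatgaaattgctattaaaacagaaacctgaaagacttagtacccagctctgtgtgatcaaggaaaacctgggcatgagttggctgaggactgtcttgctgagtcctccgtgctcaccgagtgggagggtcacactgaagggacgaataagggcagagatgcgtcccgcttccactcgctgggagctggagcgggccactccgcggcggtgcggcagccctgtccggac
Col6a3: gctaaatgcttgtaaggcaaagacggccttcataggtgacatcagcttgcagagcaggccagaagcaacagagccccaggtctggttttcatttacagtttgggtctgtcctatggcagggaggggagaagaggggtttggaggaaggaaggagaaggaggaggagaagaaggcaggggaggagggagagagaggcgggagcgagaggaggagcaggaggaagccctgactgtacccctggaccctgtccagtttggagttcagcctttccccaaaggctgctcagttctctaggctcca
Col16a1: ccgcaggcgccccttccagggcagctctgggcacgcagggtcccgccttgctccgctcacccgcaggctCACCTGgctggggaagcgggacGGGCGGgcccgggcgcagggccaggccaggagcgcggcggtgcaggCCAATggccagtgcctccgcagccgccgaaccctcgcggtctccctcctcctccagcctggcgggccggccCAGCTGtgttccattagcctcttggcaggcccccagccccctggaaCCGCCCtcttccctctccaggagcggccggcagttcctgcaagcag
The Col4a1 and Col4a2 windows share 78 bases on opposite strands, since the annotated starts lie only 21 bases apart. None of the 6 windows holds TATAAA or TGANTCA. Col1a2 holds a pair of GC boxes and a pair of CCAAT boxes, Col4a2 holds 3 GC boxes, Col16a1 holds 2 E-boxes, Col19a1 holds 1 E-box alone, and Col6a3 holds none of the 5 motifs. The table matched 34 of the 42 collagen genes, and Col1a1 and Col22a1 are among those not in it. The collagen windows had a median of 12 CpG dinucleotides and a median GC content of 60%, against 7 and 52.7% over all 32851 windows. They ranged from 0 CpG at Col28a1 to 37 at Col4a1. Counting all windows that match a collagen symbol (38), 60.5% held GGGCGG against 35.7% of all windows, 34.2% held CCAAT against 37.4%, 13.2% held TATAAA against 13.6%, 52.6% held CANNTG against 72.3% and 2.63% held TGANTCA against 7.81%. These matches are descriptions of letters in a short window, overlapping matches included, and say nothing of which factor binds.

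Across all 292 tested collagen peaks, 5 rose and 12 fell in KO, and 275 did not pass (edgeR's quasi-likelihood test, Benjamini-Hochberg adjusted p below 0.05 over all 73896 tested peaks). Over all tested peaks 7.01% were called, 2.77% higher and 4.23% lower, so the 5.82% called among collagen peaks was close to the background. At an unadjusted p below 0.05, 22 collagen peaks were higher and 22 lower, together 15.1% of them. Over all tested peaks 5208 were higher and 7334 lower at that threshold, together 17.0%. The median log2 ratio (log2 of the fold change, KO over WT) was 0.03 for the collagen peaks and -0.01 for all peaks. The KO libraries all lay above the WT libraries at 27 collagen peaks and all below at 25, against 9.17% and 11.2% of all peaks. The 17 called peaks sat in 10 genes and at 5421 to 110061 bases from the nearest annotated start. By the deposited classes, 11 were intronic, 3 intergenic, 2 exonic and 1 in a 5′ UTR. None was a promoter. Calls depended on the scaling, the losses most. When the authors' library factors replaced TMM, the median over all peaks moved to 0.19, and 3 collagen peaks were higher and 1 lower. Those factors stayed near 1 (0.977 to 1.035) whatever the depth, so that fit hardly corrected for depth. The smallest library, WT replicate 8, had 0.984 and the largest, KO replicate 5, had 1.035, beside median-ratio factors of 0.762 and 1.21. With library totals as the scaling the median was 0.03, with 7 collagen peaks higher and 12 lower. Of all called peaks 39.6% were higher with TMM and 68.3% with the authors' factors, and 61.3% without WT replicate 4. The number of called collagen peaks also changed when 1 library was left out, as did the number over all peaks. Without KO replicate 4 it was 2 higher and 4 lower, without KO replicate 5 it was 1 and 6, and without KO replicate 7 it was 6 and 7. Without WT replicate 3 it was 3 and 8, without WT replicate 4 it was 4 and 7, and without WT replicate 8 it was 7 and 11. Over all peaks 2049 were higher and 3128 lower with all 6 libraries. These became 1209 and 2267 without KO replicate 4, 958 and 1507 without KO replicate 5, and 2072 and 2074 without KO replicate 7. They were 1279 and 2477 without WT replicate 3, 2230 and 1408 without WT replicate 4, and 2247 and 3100 without WT replicate 8.

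**Figure D1:**
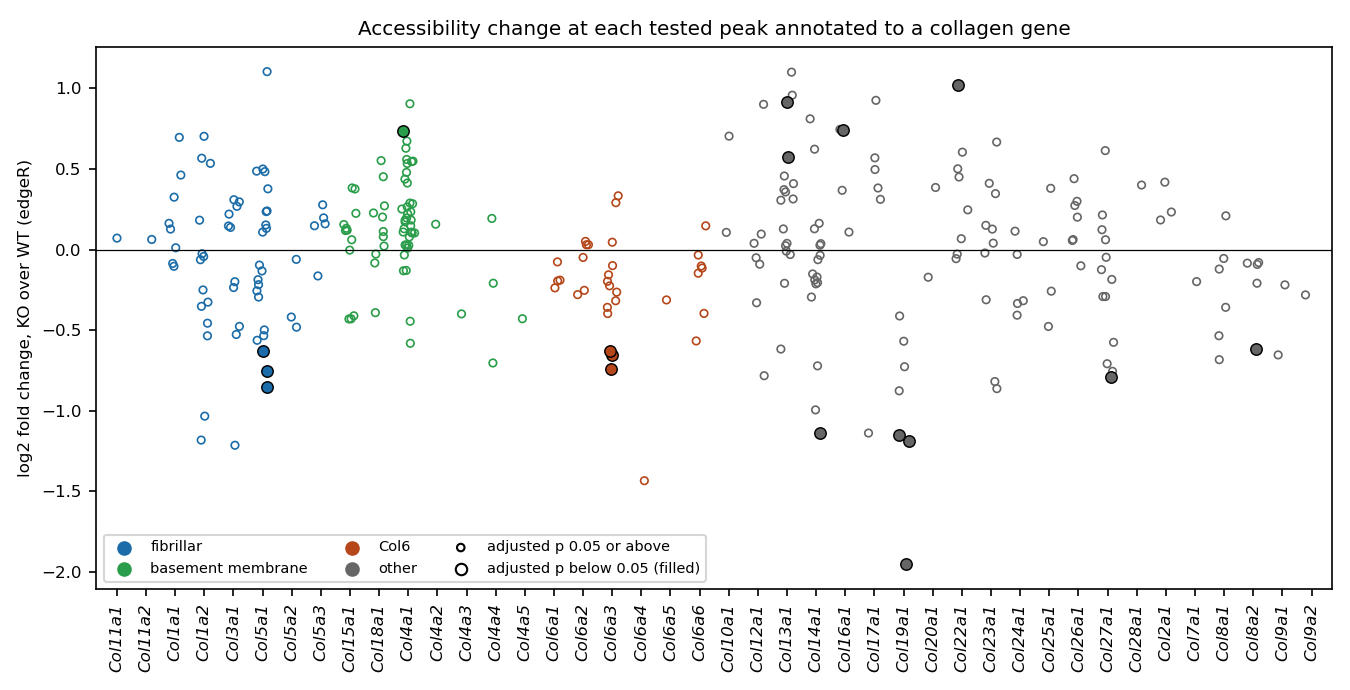
Log2 ratio of KO over WT (vertical axis) at each of the 292 tested peaks, grouped by collagen gene (horizontal axis) and coloured by class, with the 17 called peaks filled. Filled points lie below 0 at Col5a1, Col6a3, Col14a1, Col19a1, Col27a1 and Col8a2 and above 0 at Col4a1, Col13a1, Col16a1 and Col22a1.

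Each class had few calls, and the classes had different medians. The called share was 4.62% of fibrillar, 1.52% of basement membrane, 9.09% of Col6 and 7.81% of other collagen peaks. Over all tested peaks it was 7.01%, with 2.77% higher and 4.23% lower. Fibrillar peaks had 0 higher and 3 lower of 65 (median -0.03), basement membrane peaks 1 higher and 0 lower of 66 (median 0.14), Col6 peaks 0 higher and 3 lower of 33 (median -0.20), and the other collagens 4 higher and 6 lower of 128 (median 0.01). With the authors' factors these medians were 0.22, 0.35, 0.01 and 0.24 beside 0.19 for all peaks, so the Col6 median was above 0 there while still under that of all peaks. The 0 counts were also 0 with DESeq2 and limma-voom, and at an unadjusted p below 0.05 there were 2 fibrillar peaks higher, 1 basement membrane peak lower and 0 Col6 peaks higher. As a share of all counts in peaks, basement membrane peaks held 0.0645% ± 0.00511 in WT and 0.0737% ± 0.000872 in KO, with every KO library above every WT library. Col6 peaks held 0.0314% ± 0.00277 and 0.0269% ± 0.00101, with every KO library below every WT library. Fibrillar peaks held 0.0574% ± 0.00732 and 0.0561% ± 0.00305, and the remaining collagens 0.0942% ± 0.00390 and 0.0984% ± 0.00361, with overlapping groups (SD, n = 3 each). In each class WT replicate 4 had the lowest share of the 3 WT libraries. These shares are descriptions and carry no test.

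Among the fibrillar genes, all 3 called losses lay in introns of Col5a1, which encodes the main chain of type V collagen, a minor fibrillar type that nucleates and limits the width of type I fibrils. The first of the 3 peaks (chromosome 2, 27900433 to 27902572, GRCm38 coordinates of the deposited table) had 28.5, 32.8 and 28.3 counts per 1000000 scaled with TMM (CPM) in WT and 18.4, 18.6 and 16.1 in KO (libraries in the order given above). All KO values lay below all WT values, a log2 ratio of -0.75 (SE 0.20, adjusted p = 0.00353). The second peak (27917861 to 27920286) had 38.9, 54.2 and 28.3 CPM in WT and 21.7, 32.3 and 24.5 CPM in KO. Here the groups overlapped, since KO replicate 5 was above WT replicate 8 (log2 ratio -0.63, SE 0.19, adjusted p = 0.0144). The third (27930533 to 27931371) had 13.8, 19.8 and 11.8 CPM in WT and 7.41, 8.37 and 9.42 CPM in KO, without overlap (log2 ratio -0.85, SE 0.22, adjusted p = 0.00434). They lie 15077, 32648 and 44527 bases inside the gene. The first lost its call only with the authors' factors (adjusted p = 0.461). The second also lost it when WT replicate 4, KO replicate 4 or KO replicate 7 was left out (adjusted p = 0.359, 0.185 and 0.0933) and in DESeq2 (0.0873), and the third when WT replicate 4, KO replicate 4 or KO replicate 5 was (adjusted p = 0.141, 0.0594 and 0.0669). These gave 0.593 and 0.285 with the authors' factors. Over all 22 peaks of Col5a1, 12 had a negative and 10 a positive log2 ratio, and the summed gene gave -0.21 (SE 0.11, adjusted p = 0.379), with each KO library below each WT library.

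The genes for the abundant fibrillar chains did not pass at any peak. Col1a1 and Col1a2, which encode the chains of type I collagen, had 8 and 14 peaks, Col3a1, the type III chain, had 11, and none of the 33 was called. The Col1a1 promoter peak (chromosome 11, 94936077 to 94937467) had 23.3, 23.7 and 20.6 CPM in WT and 23.6, 24.5 and 27.7 CPM in KO (log2 ratio 0.16, SE 0.19, adjusted p = 0.768). At Col1a2 (chromosome 6, 4505122 to 4506519), the peak over the printed promoter had 16.8, 8.46 and 12.1 CPM in WT and 12.2, 10.02 and 13.4 CPM in KO (log2 ratio -0.06, SE 0.22, adjusted p = 0.940). At both promoters the groups overlapped, at Col1a1 by a single pair of libraries. Col3a1 gave 2.80 ± 0.571 and 3.24 ± 0.831 CPM in WT and KO at its promoter peak (0.22, SE 0.40), Col5a1 46.1 ± 13.2 and 43.0 ± 8.44 CPM (-0.10, SE 0.18) and Col5a2, the partner chain of Col5a1, 10.1 ± 0.983 and 9.62 ± 1.74 CPM (-0.06, SE 0.23). The promoter peak of Col5a3 gave 8.70 ± 5.45 and 9.64 ± 1.51 CPM (0.16, SE 0.24), that of Col11a1 2.29 ± 1.02 and 2.37 ± 0.310 CPM (0.07, SE 0.47) and that of Col11a2 40.9 ± 7.75 and 42.8 ± 5.20 CPM (0.06, SE 0.18; log2 ratios, SD, n = 3 each). Adjusted p-values of these 6 promoter peaks lay between 0.827 and 0.971 in edgeR's test. Summed over its peaks, Col1a1 gave a log2 ratio of 0.08 (SE 0.12), Col1a2 -0.15 (SE 0.14) and Col3a1 -0.03 (SE 0.14), each about the size of its SE or smaller.

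Basement membrane peaks had mostly positive log2 ratios, 50 of 66 or 75.8%, against 48.8% of all tested peaks. Over the alternatives 41 to 56 were positive, the 56 with the authors' factors, where the median over all peaks was itself 0.19. More of these peaks belonged to Col4a1 than to any other gene. Col4a1 encodes the major chain of type IV collagen. Of the 37 peaks annotated to Col4a1, 32 had a positive log2 ratio (31 with limma-voom, 28 to 34 with 1 library left out). With the authors' factors 35 were positive, but positive ratios also rose there from 32 to 43 of 65 fibrillar peaks. Of the 37, 1 peak passed. That peak (chromosome 8, 11327277 to 11328098) had 7.50, 5.79 and 6.57 CPM in WT and 12.3, 9.77 and 11.1 CPM in KO. All KO libraries lay above all WT libraries, a log2 ratio of 0.74 (SE 0.24, adjusted p = 0.0385). It lies 14861 bases upstream of Col4a1, in an intron of Col4a2. Its call was the least stable of the 17: it held in 5 of 12 alternatives, and adjusted p was 0.0503 and 0.0985 when WT replicate 3 or 4 was left out and 0.200, 0.0651 and 0.0808 when KO replicate 4, 5 or 7 was. It was 0.0674 with the authors' factors and 0.0518 with limma-voom. At 4 further Col4a1 peaks every KO library was above every WT library without a call, among them one at the end of the gene (11197831 to 11198463) with 4.11, 3.31 and 1.84 CPM in WT and 5.12, 5.99 and 6.49 CPM in KO (log2 ratio 0.91, SE 0.32, adjusted p = 0.0586). Of the 37 peaks, 5 thus had every KO library above every WT library and 1 had every KO library below, against 9.17% and 11.2% of all tested peaks. The 5 with KO above WT are spread over both genes and the flanking sequence rather than over one element. Summed over all 37 peaks, Col4a1 had 392 ± 25.1 CPM in WT against 447 ± 27.3 CPM in KO (log2 ratio 0.19, SE 0.12, adjusted p = 0.507), with overlapping groups.

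Which type IV gene a peak belongs to is partly a matter of annotation. The Col4a1 and Col4a2 starts lie under a single peak (11311704 to 11313853) that the deposited table gives to Col4a2, and 14 of the 37 peaks given to Col4a1 lie inside the RefSeq span of Col4a2, 12 of them with a positive log2 ratio. The shared promoter peak had 27.5, 18.5 and 28.8 CPM in WT and 23.7, 24.5 and 34.9 CPM in KO. The groups overlapped (log2 ratio 0.16, SE 0.19, adjusted p = 0.775). The peak counted as the Col4a1 promoter by its deposited distance (11241031 to 11241914) lies inside the gene, far from the printed start. It gave 3.34 ± 0.986 and 4.41 ± 1.51 CPM in WT and KO (0.41, SE 0.34). Col4a3 and Col4a4, minor type IV chains, also start 127 bases apart under one peak (chromosome 1, 82586342 to 82587358), which gave 10.4 ± 0.357 and 9.01 ± 2.46 CPM (-0.21, SE 0.23). The promoter peak of Col4a5 gave 1.74 ± 0.792 and 1.28 ± 0.352 CPM (-0.43, SE 0.61). Col15a1 and Col18a1 encode the basement membrane collagens with heparan or chondroitin sulfate chains whose C-terminal fragments are restin and endostatin. Their promoter peaks gave 2.07 ± 0.379 and 2.16 ± 0.309 CPM (0.06, SE 0.50) and 2.99 ± 1.48 and 3.59 ± 0.446 CPM (0.27, SE 0.38), and 8 of 12 and 8 of 11 of their peaks were positive without a call. Adjusted p-values at the 6 basement membrane promoter peaks lay between 0.625 and 0.977.

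At the Col6 genes 26 of 33 log2 ratios were negative (with the authors' factors, 18 of 33 were positive), and the 3 called losses all belonged to Col6a3, the largest chain of type VI collagen. An intronic peak (chromosome 1, 90837888 to 90839126), 5464 bases inside the gene, had 35.9, 34.2 and 24.7 CPM in WT and 17.0, 19.0 and 20.7 CPM in KO (log2 ratio -0.74, SE 0.19, adjusted p = 0.00368). An exonic peak (90775028 to 90776252) had 23.9, 25.8 and 21.0 CPM in WT and 13.7, 16.6 and 15.5 CPM in KO (-0.63, SE 0.20, adjusted p = 0.0288). An intergenic peak (90732970 to 90734764), 110104 bases from the start and past the end of the gene, had 27.7, 35.0 and 33.4 CPM in WT and 21.4, 19.5 and 20.02 CPM in KO (-0.66, SE 0.19, adjusted p = 0.0134). At all 3 every KO library lay below every WT library. Summed over its 14 peaks, Col6a3 fell from 160, 161 and 154 CPM in WT to 123, 115 and 115 CPM in KO (log2 ratio -0.43, SE 0.11, adjusted p = 0.0195 over 15915 genes). The replicates of each group lay close together at this sum and far from the other group. With 1 library fewer the sum kept its sign but not always its call: adjusted p was 0.0791, 0.0698, 0.161 and 0.0864 without WT replicate 3, KO replicate 4, KO replicate 5 and KO replicate 7, and 0.730 with the authors' factors (log2 ratios from -0.49 to -0.22 over all alternatives). Of the 3 single peaks, 1 passed when WT replicate 3 or 4 or KO replicate 4 or 7 was left out, and 0 passed without KO replicate 5 (adjusted p = 0.173, 0.129 and 0.0703 for the intergenic, exonic and intronic peak) or with the authors' factors (0.584, 0.603 and 0.467).

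No other Col6 gene had a called peak. In the TMM fit the summed log2 ratios of all 6 Col6 genes were negative: -0.16 (SE 0.12) at Col6a1 and -0.11 (SE 0.12) at Col6a2, the partners of Col6a3 in the type VI monomer, -1.45 (SE 0.53) at Col6a4, -0.32 (SE 0.32) at Col6a5 and -0.15 (SE 0.15) at Col6a6, with adjusted p between 0.144 and 0.742. Col6a1, Col6a2 and Col6a6 were above 0 in at least 1 alternative (up to 0.07, 0.13 and 0.10). Col6a4 rests on a single peak, 16289 bases upstream of the gene, with 1.95, 2.30 and 2.76 CPM in WT and 0.84, 0.99 and 0.73 CPM in KO (log2 ratio -1.44, SE 0.61, adjusted p = 0.161). It was low in every library, and its groups did not overlap. The Col6a3 promoter peak gave 11.5 ± 3.06 and 9.80 ± 0.539 CPM in WT and KO (-0.23, SE 0.23) and that of Col6a2 14.9 ± 2.78 and 15.1 ± 0.932 CPM (0.03, SE 0.21). At Col6a5 the promoter peak gave 5.64 ± 1.10 and 4.57 ± 1.37 CPM (-0.31, SE 0.30) and at Col6a6 4.70 ± 1.76 and 4.19 ± 0.844 CPM (-0.15, SE 0.32). Adjusted p-values at these 4 lay between 0.685 and 0.973, so the called losses at Col6a3 lay away from its promoter.

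**Figure D2:**
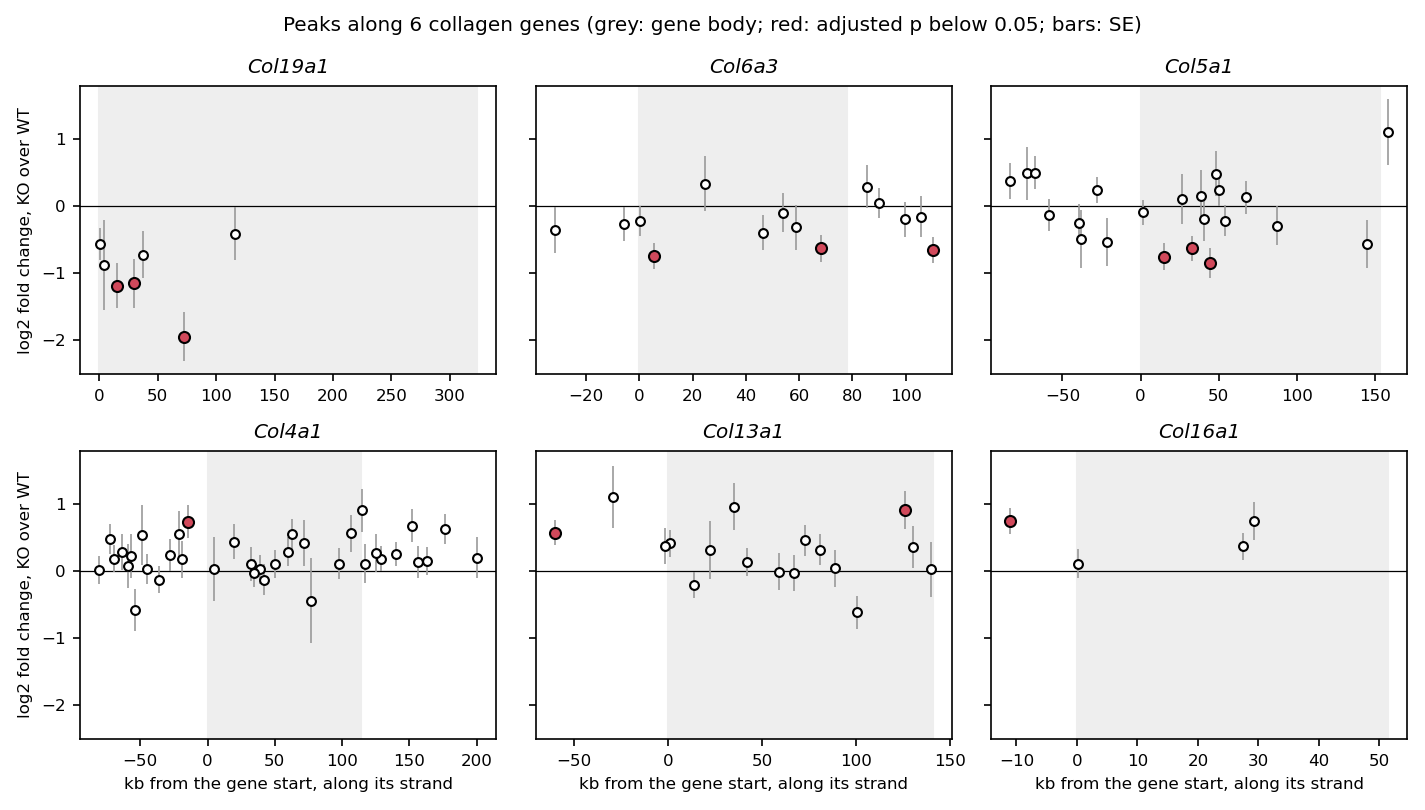
Log2 ratio of each tested peak (vertical axis, bars are SE) against its distance in kb from the deposited gene start along the strand (horizontal axis) at 6 collagen genes, with the gene body in grey and called peaks in red. All 7 Col19a1 peaks and 11 of 14 Col6a3 peaks lie below 0, all 4 Col16a1 peaks and 32 of 37 Col4a1 peaks above it, and the called peaks are not the ones at the start.

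Among the called collagen genes, Col19a1 had the largest loss. It encodes a collagen of the FACIT group, whose members bind to fibrils or basement membranes without forming fibrils themselves. An intronic peak (chromosome 1, 24514329 to 24515084), 72766 bases inside the gene, had 7.19, 6.89 and 4.21 CPM in WT and 1.98, 1.15 and 1.65 CPM in KO. Every KO library lay below every WT library, a log2 ratio of -1.95 (SE 0.36, adjusted p = 9.11e-06), and the call held in all 12 alternatives, with adjusted p up to 0.00298. The other called introns (24557518 to 24558360 and 24571529 to 24572805) gave 5.45, 5.51 and 3.68 against 1.78, 3.12 and 1.65 CPM (-1.15, SE 0.36, adjusted p = 0.0273) and 7.71, 4.41 and 4.996 against 2.30, 2.79 and 2.38 CPM (-1.19, SE 0.34, adjusted p = 0.0103). Neither overlapped between the groups. Both lost the call without WT replicate 3 (adjusted p = 0.162 and 0.262). They were lost as well without KO replicate 4 (0.133 and 0.0535) and without KO replicate 7 (0.169 and 0.0517), and the first of them also without WT replicate 4 (0.156) and in DESeq2 (0.0591). The pair gave 0.165 and 0.114 with the authors' factors. All 7 Col19a1 peaks were negative under every alternative, with log2 ratios from -1.95 to -0.41 in the TMM fit. Over the promoter, the peak (24586201 to 24587502) had 12.9, 11.4 and 8.41 CPM in WT and 9.19, 7.39 and 5.67 CPM in KO (-0.57, SE 0.24, adjusted p = 0.152), with KO replicate 4 above WT replicate 8. Summed over its peaks, Col19a1 fell from 37.4 ± 5.76 to 19.95 ± 2.51 CPM (log2 ratio -0.91, SE 0.15, adjusted p = 9.46e-04, n = 3 each), and this passed with each library left out but not with the authors' factors (adjusted p = 0.239). A further peak inside Col19a1 (24285874 to 24286903) is annotated to the neighbouring gene Col9a1, a FACIT collagen of cartilage. It had 6.17, 8.27 and 5.13 CPM in WT and 4.18, 4.93 and 3.38 CPM in KO, again without overlap (-0.65, SE 0.29, adjusted p = 0.188).

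Col16a1, another FACIT collagen, was the 1 collagen gene called higher on summed peaks. Its 4 peaks were all positive under every alternative, and their sum rose from 52.3, 54.4 and 60.7 CPM in WT to 74.4, 88.4 and 72.8 CPM in KO (log2 ratio 0.50, SE 0.12, adjusted p = 0.0144). No KO library fell into the WT range. The sum did not pass without KO replicate 5 (adjusted p = 0.178), without WT replicate 3 (0.0888) or with the authors' factors (0.279). The called peak (chromosome 4, 130036016 to 130037648) lies 11008 bases upstream of the start, inside the gene model Gm12963, and had 21.7, 20.8 and 23.7 CPM in WT and 32.5, 40.9 and 37.2 CPM in KO (log2 ratio 0.74, SE 0.19, adjusted p = 0.00297). It held in 10 of 12 alternatives, the exceptions being the authors' factors (adjusted p = 0.0741) and the fit without KO replicate 5 (0.0611). At the promoter peak itself (130047768 to 130048188) the groups were 11.7 ± 0.801 and 12.5 ± 0.969 CPM (0.11, SE 0.22, adjusted p = 0.884).

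Col22a1 and Col13a1 are collagens that myofibres make at specialised sites: Col22a1 at the myotendinous junction and Col13a1, a transmembrane collagen, at the neuromuscular junction. An intronic Col22a1 peak (chromosome 15, 72025689 to 72026503), 8131 bases inside the gene, had 6.78, 7.17 and 6.71 CPM in WT and 13.5, 17.2 and 11.3 CPM in KO. All KO libraries were above all WT libraries, a log2 ratio of 1.02 (SE 0.23, adjusted p = 6.14e-04) that was called in all 12 alternatives (adjusted p up to 0.0488). The Col22a1 promoter peak (72033853 to 72035042) had 10.3, 6.16 and 10.3 CPM in WT and 12.3, 15.8 and 12.1 CPM in KO, also without overlap, but did not pass (0.60, SE 0.23, adjusted p = 0.0888; 0.0377 without WT replicate 8). The other 6 Col22a1 peaks had log2 ratios from -0.06 to 0.50 and overlapping groups, and the summed gene gave 0.39 (SE 0.13, adjusted p = 0.122; 0.0205 without WT replicate 8). For the 5 marker promoters of myotendinous nuclei with a peak, the summed level was 36.4 to 45.4 CPM in WT and 44.1 to 51.8 CPM in KO. None was called. Col22a1 is itself one of these markers, with a mean of 8.90 CPM in WT and 13.4 CPM in KO, so the sum is not separate from it. The other markers went both ways: Ankrd1 -0.14 and Ebf1 -0.05, and Tigd4 0.41 and Fras1 0.22 (log2 ratios). The part of such nuclei in the Col22a1 values was not tested.

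At Col13a1, 13 of 17 peaks were positive (12 to 15 over the alternatives) and 2 were called. One lies in an intron (chromosome 10, 61852323 to 61853080) and had 2.77, 4.04 and 5.26 CPM in WT and 9.71, 6.73 and 6.22 CPM in KO (log2 ratio 0.91, SE 0.28, adjusted p = 0.0232). Another lies 60311 bases upstream (62038406 to 62040433) and had 24.6, 37.8 and 27.2 CPM in WT and 47.6, 45.5 and 40.4 CPM in KO (0.57, SE 0.18, adjusted p = 0.0311). Neither overlapped, and neither passed when WT replicate 3 was left out (adjusted p = 0.216 and 0.236), nor KO replicate 4 (0.286 and 0.156), nor KO replicate 5 (0.0511 and 0.138). The first was also lost without WT replicate 4 (0.0578) and in DESeq2 (0.0650), and the second with the authors' factors (0.236). The promoter peak gave 15.8 ± 3.97 and 21.1 ± 4.24 CPM (0.41, SE 0.20, adjusted p = 0.269) and the summed gene 0.24 (SE 0.14, adjusted p = 0.434). The promoter peaks of 6 markers of nuclei under the nerve terminal, 1 of them called, summed to 117 to 134 CPM in WT and 160 to 170 CPM in KO. The 1 that was called, at Chrna1, the acetylcholine receptor alpha subunit, had 6.68, 9.37 and 7.63 CPM in WT and 27.3, 29.97 and 23.96 CPM in KO (log2 ratio 1.77, SE 0.21, adjusted p = 2.44e-13). The other 5 (Musk, Colq, Etv5, Etv4 and Ache) had log2 ratios from 0.01 to 0.36 and did not pass. The part of these nuclei in the Col13a1 values was not tested.

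Among the remaining collagens 3 single peaks fell, and one of them lies in another gene. The peak annotated to Col14a1, a FACIT collagen of tendon and interstitial connective tissue, had 10.2, 13.3 and 8.68 CPM in WT and 4.28, 4.68 and 5.67 CPM in KO (chromosome 15, 55244432 to 55245251, log2 ratio -1.14, SE 0.25, adjusted p = 3.95e-04). It lies 62909 bases upstream of Col14a1, in an intron of Deptor, an inhibitor of the kinase mTOR. So do 6 other peaks of the 17 given to Col14a1, and the assignment is by distance to the start only. It passed in 11 of 12 alternatives, and the authors' factors gave an adjusted p of 0.0577. At Col27a1, a fibril-forming collagen of cartilage, an exonic peak (chromosome 4, 63253601 to 63254503) had 14.3, 13.1 and 15.8 CPM in WT and 8.25, 8.05 and 8.50 CPM in KO (-0.79, SE 0.23, adjusted p = 0.0109). At Col8a2, a short-chain network collagen, a peak classed as 5′ UTR (chromosome 4, 126309249 to 126310560) had 34.9, 47.1 and 39.7 CPM in WT and 22.5, 26.7 and 30.3 CPM in KO (-0.62, SE 0.19, adjusted p = 0.0184). All 5 Col8a2 peaks had negative log2 ratios in the TMM fit. The Col27a1 and Col8a2 peaks were both lost without KO replicate 4 (adjusted p = 0.0563 and 0.191) or KO replicate 5 (0.123 and 0.166). The Col27a1 peak was lost without WT replicate 8 (0.0744) and the Col8a2 peak without WT replicate 4 (0.126). Neither passed with the authors' factors (0.408 and 0.634).

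**Figure D3:**
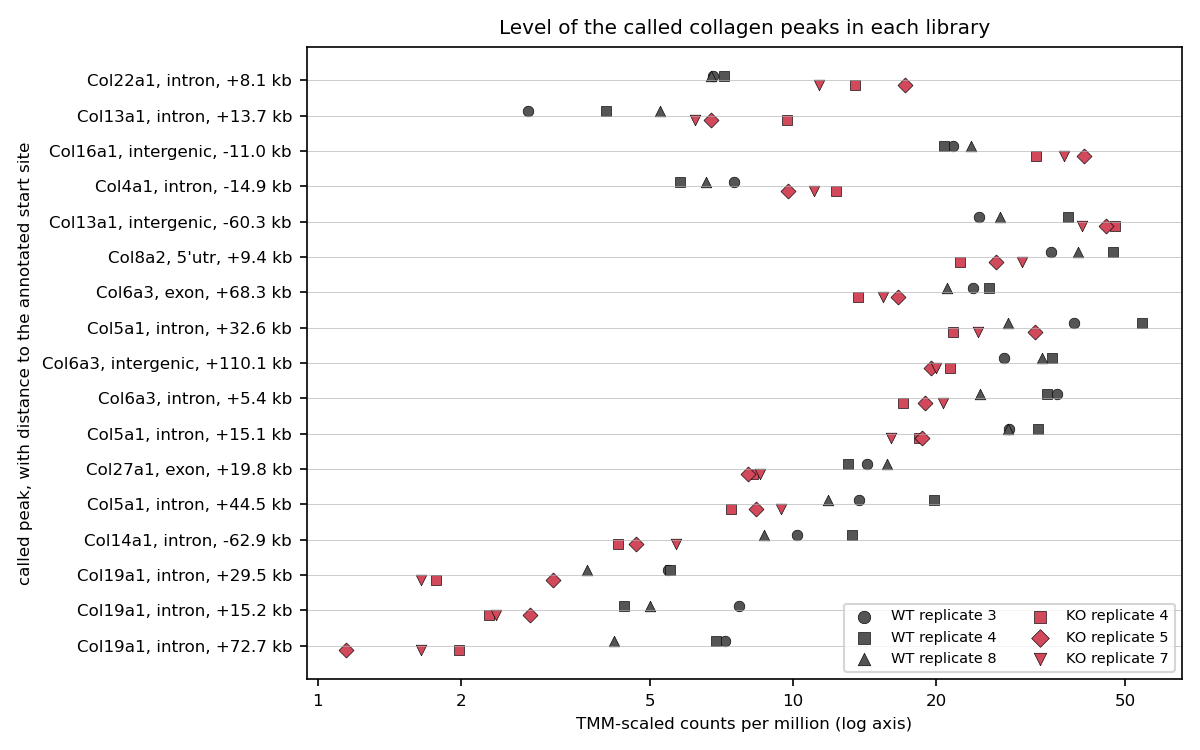
TMM-scaled CPM (horizontal log axis) of the 17 called collagen peaks in each of the 6 libraries, with WT in grey and KO in red, labelled by annotated gene, deposited class and distance to the nearest annotated start. The groups do not overlap at 16 of the 17, the exception being the Col5a1 peak at 32649 bases.

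Col17a1, the transmembrane collagen of epithelial hemidesmosomes, came closest to a call on summed peaks without reaching it. Its sum went from 39.0 ± 4.65 CPM in WT to 52.0 ± 4.71 CPM in KO (log2 ratio 0.42, SE 0.13, adjusted p = 0.0672). The 4 exonic peaks of the gene each had all KO libraries above all WT libraries, as did 9.85% of all tested exonic peaks. None was called, and peaks of the same gene in the same libraries are not independent. The largest difference among the exonic peaks (chromosome 19, 47672103 to 47672448) was 2.36, 2.85 and 1.84 against 4.07, 5.09 and 4.39 CPM (0.93, SE 0.37, adjusted p = 0.118). A peak upstream of the gene (47711119 to 47711579) ran the other way, with 3.29, 2.30 and 3.29 against 1.25, 1.89 and 0.82 CPM (-1.14, SE 0.51, adjusted p = 0.196).

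With 1 value per gene, 1 of the 42 collagen genes was higher (Col16a1), 2 were lower (Col19a1 and Col6a3) and 39 did not pass. Over all 15915 genes tested on summed peaks 1.8% were higher and 2.99% lower, and the median log2 ratio was -0.11 for the collagen genes and 0.01 for all genes. An unadjusted p below 0.05 was reached by 7 of the 42 collagen genes and by 2490 of all 15915 genes. After the 3 called genes, the smallest p-values were those of Col17a1, Col8a2 (-0.36, SE 0.12, adjusted p = 0.101, and 0.0456 without WT replicate 3) and Col22a1. No fibrillar and no basement membrane gene passed, and 0 of those 15 had an unadjusted p below 0.05. Per kb of peak, accessibility in WT ran from 3.15 CPM at Col10a1, the collagen of hypertrophic cartilage, to 15.8 CPM at Col16a1 and 19.3 CPM at Col11a2. Col3a1, the type III chain gene, had 4.94 CPM per kb in WT, near the low end of that range.

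**Figure D4:**
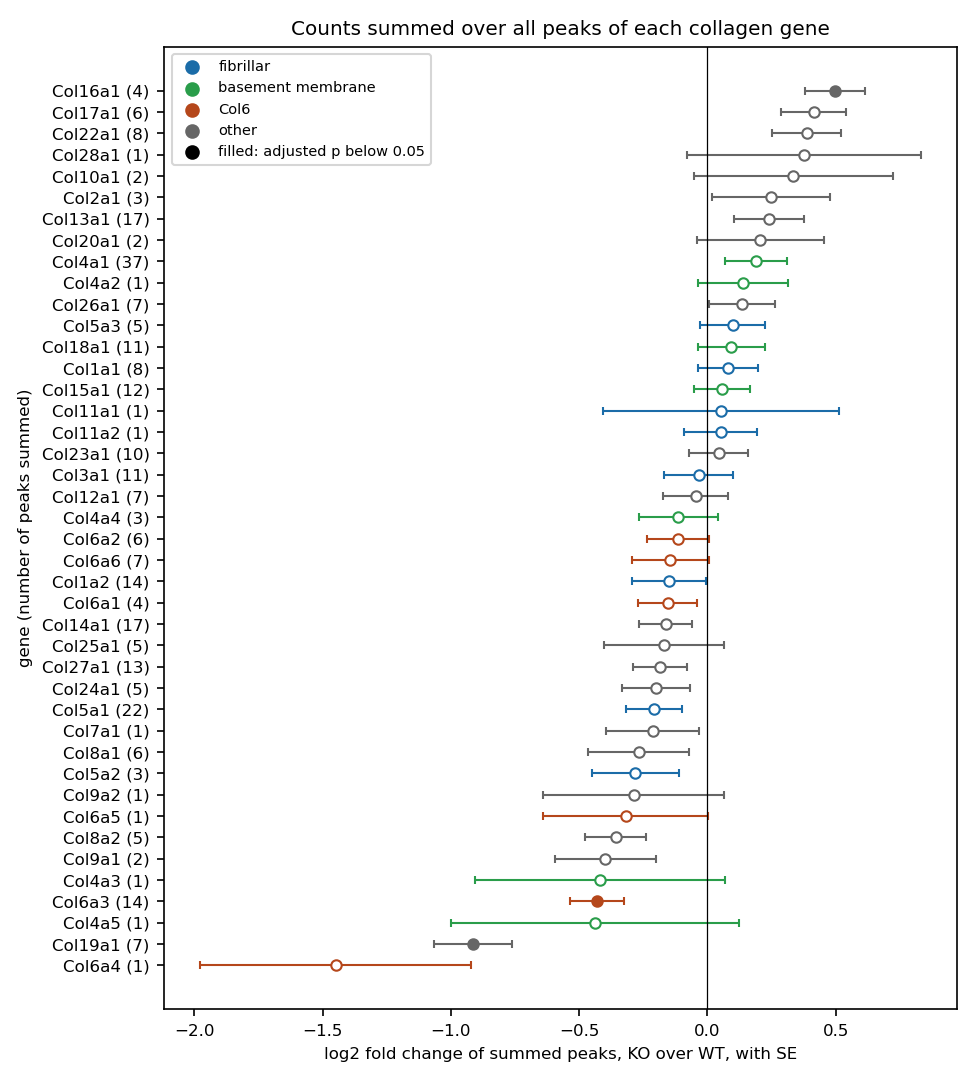
Log2 ratio of KO over WT with its SE (horizontal axis) for counts summed over the peaks of each of the 42 collagen genes (vertical axis, number of peaks in brackets), coloured by class. Col16a1 is the filled point above 0, and Col6a3 and Col19a1 are the filled points below it, and the widest bars are those of Col4a5, Col6a4, Col4a3, Col11a1 and Col28a1, each with 1 peak.

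At the promoters, 35 collagen genes had a tested peak within 3 kb of an annotated start, and 0 of the 35 were called by edgeR, DESeq2 or limma-voom. Over all 12868 promoter peaks, 1 per gene, 0.894% were higher and 0.699% lower. At an unadjusted p below 0.05 there were 3 collagen promoters, those of Col22a1, Col19a1 and Col13a1 described above. That was 8.57% of the collagen promoters, against 6.29% of all promoters. The median log2 ratio was -0.03 for the collagen promoters and 0.06 for all promoters, and 17 of the 35 were positive. One library stood apart: WT replicate 4 was the lowest of the 6 at 18 of the 35 collagen promoters, or 51.4%, against 19.5% of all promoters. Outside promoters it was the lowest at 81 of 257 collagen peaks, or 31.5%, against 18.3% of all tested peaks. Among the promoters Col5a3 was the extreme case, with 14.3, 3.40 and 8.41 CPM in WT and 8.25, 11.2 and 9.42 CPM in KO. Without WT replicate 4 the collagen median was -0.11 (0.09 for all promoters), and without WT replicate 8 it was 0.15 (0.07 for all promoters). The promoters of 12 fibro-adipogenic progenitor markers, all with a tested peak and 0 called, summed to 168, 120 and 148 CPM in WT and 126, 141 and 163 CPM in KO. That sum was also lowest in WT replicate 4. The groups overlapped, and the part of these cells in the promoter values was not tested.

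The genes that process, cleave, bind or accompany collagens were examined at 86 promoter peaks from 5 lists, and 2 were higher, 1 lower and 83 did not pass (median log2 ratio 0.07), against the 0.894% higher and 0.699% lower of all promoter peaks given above. Crtap, the cartilage-associated protein of the complex that 3-hydroxylates prolines of fibrillar collagen, had 18.5, 19.5 and 16.8 CPM in WT and 29.3, 37.8 and 32.3 CPM in KO at its promoter (log2 ratio 0.86, SE 0.19, adjusted p = 4.91e-04). Ltbp4, a binding protein that anchors latent TGF-beta in the matrix, had 4.32, 5.88 and 5.78 CPM in WT and 13.4, 11.9 and 8.32 CPM in KO (1.07, SE 0.25, adjusted p = 9.28e-04). At both, every KO library was above every WT library, and both were called in each of the 12 alternative fits, though the Crtap peak, 1359 bases from the start, falls outside a 1 kb promoter window. Tgfbr3, the TGF-beta co-receptor betaglycan, had 11.9, 11.7 and 5.78 CPM in WT and 7.21, 5.09 and 2.47 CPM in KO (-1.02, SE 0.26, adjusted p = 0.00291). Its groups overlapped, and it did not pass without WT replicate 3, WT replicate 4 or KO replicate 7 (adjusted p = 0.0870, 0.0984 and 0.188), in DESeq2 (0.0843) or with the authors' factors (0.101). By list, collagen processing had 1 higher and 0 lower of 27, collagen breakdown 0 and 0 of 11, collagen receptors 0 and 0 of 6, matrix partners 0 and 0 of 22 and matrix signalling 1 and 1 of 20.

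Markers of the cell types that make collagens gave these summed promoter levels. Endothelial markers (8 promoter peaks) had 50.4 to 78.8 CPM in WT and 56.2 to 81.3 CPM in KO, with 1 higher, Cldn5, a tight junction protein (0.71, SE 0.19, adjusted p = 0.00594). The other 7 did not pass and went both ways: Sox17 -0.88, Tie1 -0.55, Tek -0.28 and Cdh5 -0.26, and Erg 0.33, Kdr 0.19 and Flt1 0.05. The median log2 ratio of the endothelial list was -0.10. Smooth muscle and pericyte markers (7) had 79.1 to 81.8 and 66.5 to 79.9 CPM, tenocyte markers (5) 115 to 138 and 131 to 153 CPM, and Schwann cell markers (4) 44.2 to 53.9 and 57.1 to 59.7 CPM, with 0 called in each. Macrophage markers (3) had 39.3 to 45.6 and 36.2 to 38.5 CPM, and satellite cell markers (6) 64.9 to 71.4 and 63.1 to 72.9 CPM, again with 0 called. The 9 myofibre promoters had 715 to 1154 and 802 to 864 CPM, with 1 lower, Myh4, the fastest myosin heavy chain (-1.08, SE 0.18, adjusted p = 3.95e-07). Every KO library lay above the WT range for Schwann cell and nerve terminal markers and below it for macrophage markers. These sums rest on few promoters: 4 of 9 listed Schwann cell markers and 3 of 9 macrophage markers. Most of the macrophage sum was Spi1 (mean 34.0 CPM in WT and 30.3 CPM in KO). In the nerve terminal sum Chrna1 alone went from a mean of 7.89 CPM in WT to 27.1 CPM in KO. The part of these cell types in the collagen results was not tested. The Prr14 promoter peak itself had 61.9 ± 4.70 CPM in WT and 60.5 ± 9.74 CPM in KO (-0.03, SE 0.18, adjusted p = 0.961), and as the deleted part is not given, it cannot check the labels.

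In the authors' deposited table, 268 of the collagen peaks have an adjusted p, of which 4 are higher and 1 is lower in KO, against 2.44% and 0.872% of all 66394 peaks with an adjusted p there. All 5 are among the 17 called in edgeR. The authors' deposited table gives the lower one as the Col19a1 intron with a log2 ratio of -1.80 (adjusted p = 0.00318). Its higher ones are the peaks of Col22a1 (1.23, adjusted p = 0.00630), Col16a1 (0.97, adjusted p = 0.0110), Col13a1 in the intron (1.12, adjusted p = 0.0337) and Col4a1 (0.93, adjusted p = 0.0438), all in the authors' deposited table. Its median log2 ratio is 0.25 for collagen peaks and 0.19 for all peaks, in the authors' deposited table too. The Col5a1 and Col6a3 losses did not pass there, with adjusted p between 0.301 and 0.590 in the authors' deposited table.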

How the data were processed

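Accessibility was measured by ATAC-seq in 6 libraries of mouse quadriceps femoris, 3 Prr14-KO and 3 Prr14-WT. The build was GRCm38, and the tools listed, without roles, in the submitters' processing notes are MACS2, BWA, Trimmomatic, DESeq2 1.6.3, bedtools and deepTools. How reads were counted, shifted and deduplicated is not given in the sources used here. Whole-number counts per peak and library were deposited by the authors for 1 common list of 75134 peaks. The authors also deposited a normalized signal, a log2 fold change, p-values raw and adjusted, and a score per peak; the signal served only to obtain the authors' library factors, and the score was not used.

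The main test was edgeR 4.0.16's quasi-likelihood test on the counts (R 4.3.3; TMM, filterByExpr with minimum count 10 and minimum total 15, two-sided), fitted on all 73896 peaks that passed, with Benjamini-Hochberg adjustment over them. A call is an adjusted p below 0.05. SE is the log2 fold change divided by the square root of F. Levels are TMM-scaled counts per 1000000. Counts summed over all peaks of a gene were fitted likewise on 15915 genes. Alternatives were DESeq2 1.42.0, limma-voom (limma 3.58.1), median-ratio factors, library totals, the authors' factors, no filter and each library left out. Libraries held 7608514 to 12061822 counts in peaks, with a common biological coefficient of variation of 0.201. On simulated data of 73896 peaks the test recovered 10% of peaks raised 1.5 times, 60% at 2 times, 100% at 4 times, 35% lowered to 0.5 and 92.5% lowered to 0.25 of the level, with 3 false among 122 calls. The changed peaks were drawn only from those with a mean count above the 0.25 quantile.

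Named in full were the promoter peaks of fibrillar, basement membrane and Col6 genes, the called peaks, the 6 genes of smallest p on summed peaks and called promoters of the pathway lists. Of 103 listed pathway genes, 98 matched. Members and lists were chosen with earlier results of these data known. Of the 293 collagen peaks, 131 of the tested ones lie outside the deposited span of their gene, 49 of them inside another RefSeq gene, and near-identical or overlapping genes can share reads.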

Additional observations from a re-analysis of the deposited data

How the results depend on the processing

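All 12 alternative fits kept the sign of all 17 called collagen peaks, and 2 of the 17, at Col19a1 and Col22a1, stayed called in all 12. With the authors' factors, collagen peaks called higher numbered 3 instead of 5 (2 instead of 4 among the other collagens) and those called lower 1 instead of 12 (fibrillar 0, Col6 0, others 1), and on summed peaks 0 genes were higher and 0 lower. The authors' deposited table had 1 lower collagen peak, with 0 fibrillar, 0 Col6 and 1 among the others. Basement membrane peaks called higher were 3 with library totals, 2 with no low-count filter and 0 with limma-voom, against 1. Col6 peaks called lower were 1 within 50 kb of a start. With 1 library left out, collagen peaks called higher ranged from 1 to 7 (basement membrane 0 to 2, others 1 to 5) and those called lower from 4 to 11 (fibrillar 1 to 3, Col6 0 to 3, others 2 to 5); genes on summed peaks were 0 to 2 higher and 1 to 2 lower, and 0 to 1 collagen promoters were higher. Pathway promoters called higher were 1 within 1 kb, against 2, and those called lower were 0 with DESeq2, 0 with the authors' factors and 0 to 1 with 1 library left out. With the authors' factors the log2 ratios of the class sums were 0.36, -0.060 and 0.22 for basement membrane, Col6 and the other collagens, against 0.19, -0.22 and 0.06 as shares. The authors' factors hardly corrected for depth, as given above, and the part of depth in these differences was not tested.

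Uncalled promoter peaks near 0 changed sign in 23 cases, with adjusted p of at least 0.709. With the authors' factors Col6a6 gave a log2 ratio of 0.094, Col1a2 0.14, Col5a2 0.16 and Col5a1 0.15. With 1 library left out, the promoter values ran from -0.39 to 0.011 at Col4a4, -0.020 to 0.31 at Col4a2, -0.41 to 0.065 at Col6a6, -0.026 to 0.73 at Col18a1, -0.21 to 0.76 at Col5a3, -0.030 to 0.19 at Col11a2, -0.39 to 0.0013 at Col6a3, -0.26 to 0.24 at Col1a2, -0.093 to 0.16 at Col6a2, -0.15 to 0.072 at Col5a2, -0.064 to 0.21 at Col15a1, -0.29 to 0.070 at Col5a1 and -0.16 to 0.50 at Col11a1. Of the single values named, 480 were on the same side of the threshold with the same sign, 75 lost the call and 3 gained it. No paired analysis was run, because the labels give no pairing of KO with WT libraries. The scaling of class sums with TMM was chosen after seeing the data. At this depth, collagen differences of 1.5 times or less can have been missed, and so can many of 2 times. In the simulation 60% of peaks raised 2 times and 35% of those lowered to 0.5 were recovered.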
